A study of Mus musculus with 12 samples.

Results

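The 10 chemokine genes described here are the CXC chemokines Cxcl1, Cxcl2, Cxcl3, Cxcl5, Cxcl9, Cxcl10, Cxcl11, Cxcl12, and Cxcl16 and the CX3C chemokine Cx3cl1, chosen by name from the 56941 genes of the count table. All 10 were among the 14810 genes that had enough reads to be tested. They were read in poly(A) RNA of 3T3-L1 cells, a wild-type mouse embryonic fibroblast line, after 24 hours in 4 conditions with 3 libraries each. Control cells received vehicle. IL-4/13 cells received the type 2 cytokines IL-4 and IL-13 (50 ng/mL of each). Inf cells received an inflammatory cocktail with 20 ng/mL of TNF-α, 50 ng/mL of IL-17A, and 0.5 ng/mL of IL-1β. IL-4/13 + Inf cells received all of these cytokines. A cell line on plastic is a limited model of a dermal fibroblast, and no label ties a library to a separate culture, so that the p-values measure the spread between these libraries, which may be technical. The comparisons ask which chemokines respond to the inflammatory cocktail and how IL-4/13 changes that response.

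Chemokines are small secreted proteins that guide leukocytes through G protein–coupled receptors. Cxcl1, Cxcl2, Cxcl3, and Cxcl5 carry the ELR motif and attract neutrophils through CXCR2. Their genes are classical targets of NF-kB, and IL-17A is known to prolong the life of their mRNAs in fibroblasts stimulated with TNF-α. Cxcl9, Cxcl10, and Cxcl11 bind CXCR3 on activated T cells and NK cells and are best known as interferon-induced genes. Cxcl12 binds CXCR4 and is made constitutively by stromal cells. Cxcl16, the ligand of CXCR6, and Cx3cl1 (fractalkine), the ligand of CX3CR1, are made as membrane-bound proteins that proteases can release.

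The genes of the CXCR2 and CXCR3 ligands all lie on chromosome 5. In the GENCODE annotation, Cxcl3, Cxcl15, Cxcl1, and Cxcl2 follow each other among protein-coding genes, Cxcl5 lies next to Ppbp, and Cxcl10 and Cxcl11 are neighbors. Cxcl12 is on chromosome 6, Cxcl16 on chromosome 11, and Cx3cl1 on chromosome 8 between Ccl22 and Ccl17. Cxcl11 had no symbol in the count table and was matched by its identifier, ENSMUSG00000060183, which GENCODE lists as a polymorphic pseudogene.

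RefSeq promoter windows were at hand for 7 of the 10 genes, Cxcl5, Cxcl11, and Cxcl16 being the others. The sequences end at the base before the annotated start, on build GRCm38.p6, which is an older build than that of the counts. Those of Cxcl1, Cxcl2, and Cxcl3 are shown because Inf raised all of these neighboring genes. The sequence of Cxcl10 is shown for its different elements, and that of Cxcl12 because Inf was not seen to raise this gene. Capitals mark matches to the kB consensus and, in Cxcl10, first the match to GAAANNGAAA, the core of an interferon response element.
Cxcl1 (chr5:90891115-90891244, plus strand): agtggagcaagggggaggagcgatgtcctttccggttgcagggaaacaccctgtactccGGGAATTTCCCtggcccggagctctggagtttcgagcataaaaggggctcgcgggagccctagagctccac
Cxcl2 (chr5:90903769-90903898, plus strand): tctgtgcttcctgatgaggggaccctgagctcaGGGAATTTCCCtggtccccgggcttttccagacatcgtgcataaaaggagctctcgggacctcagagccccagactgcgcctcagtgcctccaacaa
Cxcl3 (chr5:90785971-90786100, plus strand): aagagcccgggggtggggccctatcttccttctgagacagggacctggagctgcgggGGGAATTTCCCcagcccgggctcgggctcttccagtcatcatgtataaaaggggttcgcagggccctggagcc
Cxcl10 (chr5:92348890-92349139, minus strand): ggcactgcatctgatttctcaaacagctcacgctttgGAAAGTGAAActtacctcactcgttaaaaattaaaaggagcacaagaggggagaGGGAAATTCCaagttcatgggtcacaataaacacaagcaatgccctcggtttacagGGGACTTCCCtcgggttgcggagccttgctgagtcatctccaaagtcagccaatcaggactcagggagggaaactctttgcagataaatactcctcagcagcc
Cxcl12 (chr6:117168405-117168534, plus strand): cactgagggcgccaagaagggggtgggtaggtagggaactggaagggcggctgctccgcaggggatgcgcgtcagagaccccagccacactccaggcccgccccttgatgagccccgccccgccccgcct

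Cxcl1, Cxcl2, and Cxcl3 held the same match, GGGAATTTCC, whose opposite strand overlaps it as a further match. It began 71 bases before the start in Cxcl1, 97 in Cxcl2, and 73 in Cxcl3. These letters were picked from the members' own kB matches, so that their rarity is a description and not a test. On either strand, they occurred in the 250 bases before the start in 28 of 32851 promoter windows, or 0.0852%. The windows of Cxcl1, Cxcl2, and Cxcl3 are included in this count. Cxcl10 held kB matches beginning 159 and 103 bases before its start and the interferon element at 213 bases. A kB match was present in 4 of the 7 members' windows against 3.90% of all windows, and GAAANNGAAA in 1 of 7 against 2.98%. The windows of Cxcl9, Cx3cl1, and Cxcl12 held no kB match. Inf raised Cxcl9 and Cx3cl1 and was not seen to raise Cxcl12, so that the match did not separate raised genes from the others. Neither TTCNNNNGAA nor TTCNNNGAA, 2 spacings of a STAT motif, was found on either strand of the 7 windows, while 5.85% and 7.02% of all windows held them. These are matches of letters only.

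Levels of transcripts were compared between the members as CPM, the reads of a gene per 1000000 scaled reads of the library, per kilobase of exons. A value after ± is an SD over 3 libraries for a level, share, or ratio, and an SE for a difference. In control cells, Cxcl12 was highest at 41.7 ± 0.93 CPM per kilobase, followed by Cx3cl1 at 37.0 ± 1.28, Cxcl5 at 11.2 ± 2.18, Cxcl10 at 4.77 ± 0.62, and Cxcl1 at 3.78 ± 0.21. Cxcl16 was at 0.559 ± 0.220, Cxcl11 at 0.0516 ± 0.031, and Cxcl9 at 0.0396 ± 0.0016, and the libraries of the last 2 overlapped. No read of Cxcl2 or Cxcl3 was counted in control cells. Among these genes, the resting cells held mostly Cxcl12 and Cx3cl1 transcripts.

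With IL-4/13 alone the order was the same, with Cxcl12 at 39.3 ± 2.37 CPM per kilobase, Cx3cl1 at 34.1 ± 0.35, and Cxcl5 at 15.4 ± 1.82, and the libraries of Cxcl10 at 6.73 ± 0.95 and Cxcl1 at 5.84 ± 0.46 overlapped.

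With Inf the order of levels changed. Cxcl5 led at 2142 ± 82.4 CPM per kilobase, then Cxcl1 at 701 ± 42.5, Cx3cl1 at 223 ± 1.72, Cxcl12 at 41.9 ± 1.63, Cxcl10 at 28.1 ± 8.68, Cxcl16 at 6.99 ± 0.26, Cxcl11 at 2.11 ± 0.44, Cxcl3 at 1.47 ± 0.067, Cxcl2 at 0.667 ± 0.20, and Cxcl9 at 0.239 ± 0.14. No neighbors in this order overlapped between their libraries. In IL-4/13 + Inf, Cxcl5 at 1907 ± 46.0 CPM per kilobase, Cxcl1 at 768 ± 21.4, and Cx3cl1 at 192 ± 5.01 again led. Cxcl10 at 35.2 ± 2.31 CPM per kilobase stood above Cxcl12 at 24.1 ± 0.42, and Cxcl3 at 2.88 ± 0.33 and Cxcl11 at 2.75 ± 0.43 overlapped. Per kilobase of the longest transcript no rank changed, but Cxcl12 at 34.99 ± 0.62 and Cxcl10 at 35.5 ± 2.34 then differed by less than the spread of the IL-4/13 + Inf libraries.

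**Figure D1:**
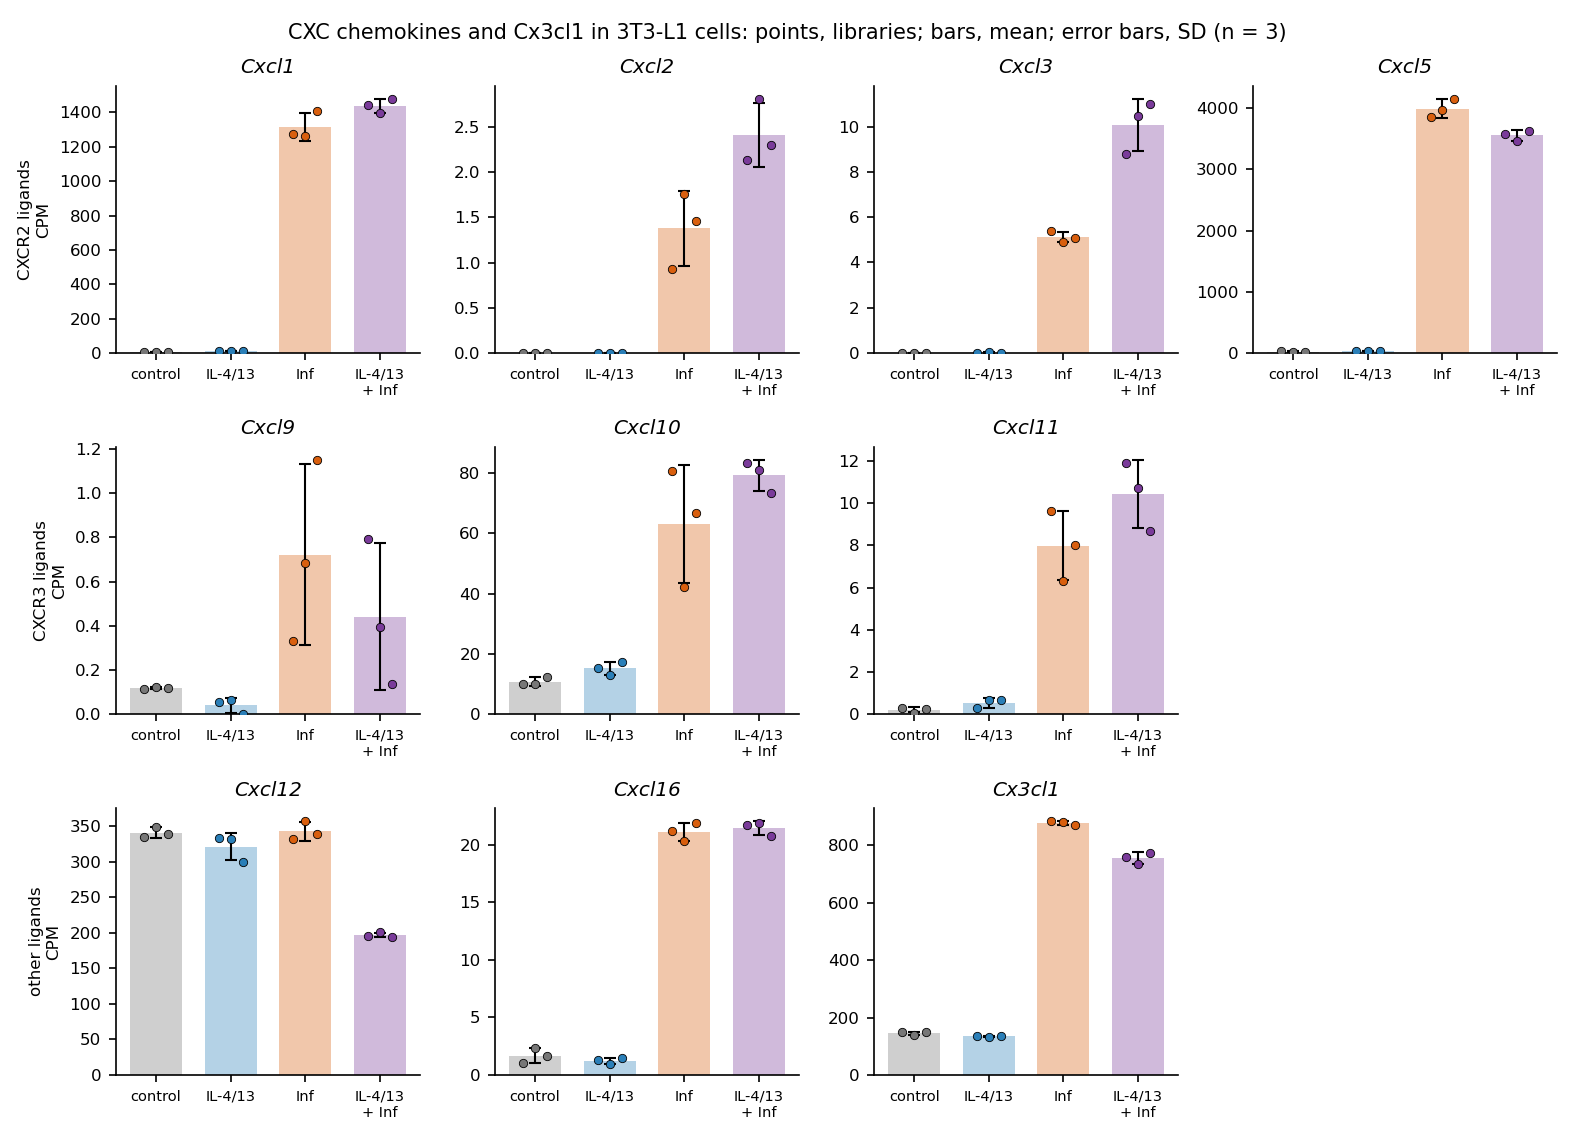
Level of each chemokine gene in CPM (y axes from 0, each with its own scale) in the 4 conditions; points are the 3 libraries, bars the mean, and error bars the SD. The CXCR2 ligands go from 20.9 CPM or less in control to levels between 1.38 (Cxcl2) and 3991 (Cxcl5) CPM with Inf, while Cxcl12 is at 343 CPM with Inf and 197 CPM with IL-4/13 + Inf.

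Inf raised 9 of the 10 chemokine genes against control, and Cxcl12 was the exception. A gene was called where edgeR's quasi-likelihood test over all tested genes gave an adjusted p under 0.05 and the log2 fold change was beyond 0.25 in either direction. Of all tested genes, 16.3% were called higher and 15.3% lower in this comparison. The median fitted log2 fold change of the 10 members was 4.46, compared with 0.01 for all tested genes. The member median includes the fits of Cxcl2 (7.57), Cxcl3 (9.44), and Cxcl9 (2.54), which had few or no reads in control. Their fold differences have only lower limits, of 7.70, 28.6, and 4.03. The size of the member median therefore depends on fits that the control reads do not fix.

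Among the CXCR2 ligands, Cxcl1 and Cxcl5 made up nearly all of the transcripts. Cxcl1 was at 7.54, 6.95, and 6.78 CPM in the control libraries and at 1275, 1263, and 1407 CPM with Inf. Its level was 185-fold higher with Inf (log2 fold change 7.53, SE 0.065, edgeR adjusted p = 3.7e-36). Cxcl5 was at 25.5, 17.9, and 19.1 CPM in control and at 3846, 3974, and 4152 CPM with Inf. This was a 191-fold difference (7.58, SE 0.12, edgeR adjusted p = 3.7e-12), so that both genes were far apart between the conditions in every library.

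Cxcl2 and Cxcl3 were induced from no reads in control to low levels. Cxcl2 reached 0.930, 1.75, and 1.45 CPM with Inf, or 14, 36, and 24 reads. This was at least 7.70-fold above 3 counts per control library, the limit used for a gene without reads. Cxcl3 reached 5.38, 4.92, and 5.09 CPM, at least 28.6-fold above that limit. Per kilobase, Cxcl3 amounted to 0.210% ± 0.016 of Cxcl1 with Inf. Cxcl1 and Cxcl3 differed widely in level and hold the same kB match at a similar distance from the start. The part of that match in their levels was not tested. Of the 50-base stretches of Cxcl2, 5.35% occur also in Cxcl3, so that some reads may not tell these genes apart. Whether such reads were counted or left out is not given.

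Summed over the 4 genes, CXCR2 ligands rose from 27.9 ± 4.44 CPM in control to 5312 ± 227 CPM with Inf, or 0.526% ± 0.022 of all counts in a library. Cxcl5 gave 75.1% ± 0.60 of the reads of this class with Inf and 74.4% ± 2.59 in control. Cxcl1 gave 24.7% ± 0.61 and 25.6% ± 2.59. These shares of Cxcl1 and Cxcl5 with Inf were within the range of the control libraries, whereas Cxcl2 and Cxcl3 had no reads in control.

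Summed over the class, the CXCR3 ligands reached far lower levels with Inf than the CXCR2 ligands. Cxcl10 was at 9.9999, 9.86, and 12.4 CPM in control and at 80.8, 42.2, and 66.7 CPM with Inf. It was 5.84-fold higher (log2 fold change 2.55, SE 0.25, edgeR adjusted p = 4.1e-05), and its Inf libraries were widely spread. Cxcl11 rose from 0.286, 0.0620, and 0.240 CPM to 9.64, 6.33, and 8.002 CPM, a 38.5-fold difference from 1 to 5 reads per control library (5.27, SE 0.33, edgeR adjusted p = 2.6e-14). The Inf library with the lowest Cxcl10 also had the lowest Cxcl11.

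Cxcl9 stayed near the limit of detection. It had 2 reads in each control library and 5, 14, and 19 reads with Inf, and was called higher (edgeR adjusted p = 0.0035). The ratio of the summed, depth-adjusted reads was 6.12, with an exact 95% interval of 2.56 to 17.7 that covers counting error only. The summed CXCR3 ligands were at 11.1 ± 1.45 CPM in control and 71.9 ± 21.1 CPM with Inf. Opposite-strand exons of Art3 overlap 5.91% of the exonic bases of Cxcl10, and those of Gm2673 overlap 41.7% of Cxcl11, but Art3 had at most 10 reads and Gm2673 no read in any library.

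Of the remaining genes, Cx3cl1 and Cxcl16 rose and Cxcl12 was not called. Cx3cl1 was at 149, 140, and 148 CPM in control and at 884, 880.5, and 871 CPM with Inf, a 6.04-fold difference (log2 fold change 2.59, SE 0.041, edgeR adjusted p = 2.0e-29). Cxcl16 rose 12.6-fold from 1.03, 2.36, and 1.68 CPM to 21.2, 20.3, and 21.9 CPM (3.65, SE 0.16, edgeR adjusted p = 2.4e-18). Cxcl12 was at 334, 349, and 339 CPM in control and at 332, 358, and 339 CPM with Inf. The Cxcl12 libraries of these conditions overlapped, and the 95% interval of its log2 fold change reached from −0.08 to 0.10 around 0.01. The opposite-strand gene Zmynd15 overlaps 18.3% of the exonic bases of Cxcl16 and had 31 to 66 reads with Inf, against 319 to 417 for Cxcl16.

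IL-4/13 alone raised 1 of the 10 genes, Cxcl1, and lowered none. Among all tested genes, 2.78% were called higher and 2.57% lower. Cxcl1 was at 10.6, 11.9, and 10.3 CPM with IL-4/13, above every control library, by 3.85 ± 0.55 CPM. Cxcl5, at 26.1, 27.5, and 32.6 CPM, was also above every control library, but its log2 fold change of 0.45 (SE 0.13) had an edgeR adjusted p of 0.061. Without the first control library, the difference was 0.63 and was called (edgeR adjusted p = 3.0e-06, with a range up to 0.15 over 18 alternatives). Cxcl10 at 15.4, 12.9, and 17.1 CPM did not overlap with control (0.49, SE 0.30, edgeR adjusted p = 0.42), and without the second Inf library, which is not part of this comparison but of the shared estimate of the spread, it was called (edgeR adjusted p = 0.011, with a range of 0.0034 to 0.63 over the alternatives). Cxcl2, Cxcl3, and Cxcl9 had 3 or fewer reads in every library of both conditions, so that a change was not detectable at this depth.

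The members without a call after IL-4/13 alone differed in how well a change is bounded. For Cx3cl1, at 135, 133, and 134 CPM, the log2 fold change was −0.12 (95% interval −0.20 to −0.03, edgeR adjusted p = 0.077). For Cxcl12, at 334, 331, and 299 CPM, it was −0.08 (95% interval −0.18 to 0.01). The intervals of Cxcl16 (−0.96 to 0.10) and Cxcl11 (0.15 to 2.48) were wide, and both genes had few reads without Inf.

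On top of Inf, IL-4/13 raised 1 of the 10 genes, Cxcl3, and lowered 1, Cxcl12. Among all tested genes, 7.55% were called higher and 7.00% lower, so that the members' share of calls in each direction was near that of all genes. The members' median log2 fold change was 0.08, and that of all tested genes −0.01. The 2 called genes are described first, then the smaller differences.

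Cxcl3 was at 8.78, 10.46, and 11.0 CPM with IL-4/13 + Inf, each above the 4.92 to 5.38 CPM of the Inf libraries. The 1.96-fold difference (log2 fold change 0.97, SE 0.17, edgeR adjusted p = 7.0e-05) corresponded to 4.95 ± 0.68 CPM. Cxcl2 was at 2.13, 2.81, and 2.29 CPM, also above the Inf libraries, with a difference of 0.78 (SE 0.32, edgeR adjusted p = 0.086) that was not called. The rise of Cxcl3 was small beside the CXCR2 ligands as a whole, since Cxcl3 still amounted to 0.375% ± 0.043 of Cxcl1 per kilobase.

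Cxcl1 and Cxcl5 differed from Inf with opposite signs and by amounts below the calling threshold. Cxcl1 was at 1445, 1397, and 1477 CPM with IL-4/13 + Inf, overlapping with Inf (0.13, SE 0.043, edgeR adjusted p = 0.026). Cxcl5 was at 3582, 3457, and 3621 CPM, below every Inf library (−0.17, SE 0.086, edgeR adjusted p = 0.21). The ratio of Cxcl1 to Cxcl5 per kilobase was 0.329, 0.316, and 0.337 in the Inf libraries and 0.401, 0.402, and 0.405 with IL-4/13 + Inf. The ratios of these conditions did not overlap, and the exact two-sided permutation p was 0.1, the smallest that 3 libraries against 3 allow, for a ratio chosen after its values were seen. The class total was 5005 ± 125 CPM with IL-4/13 + Inf, against 5312 ± 227 CPM with Inf.

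**Figure D2:**
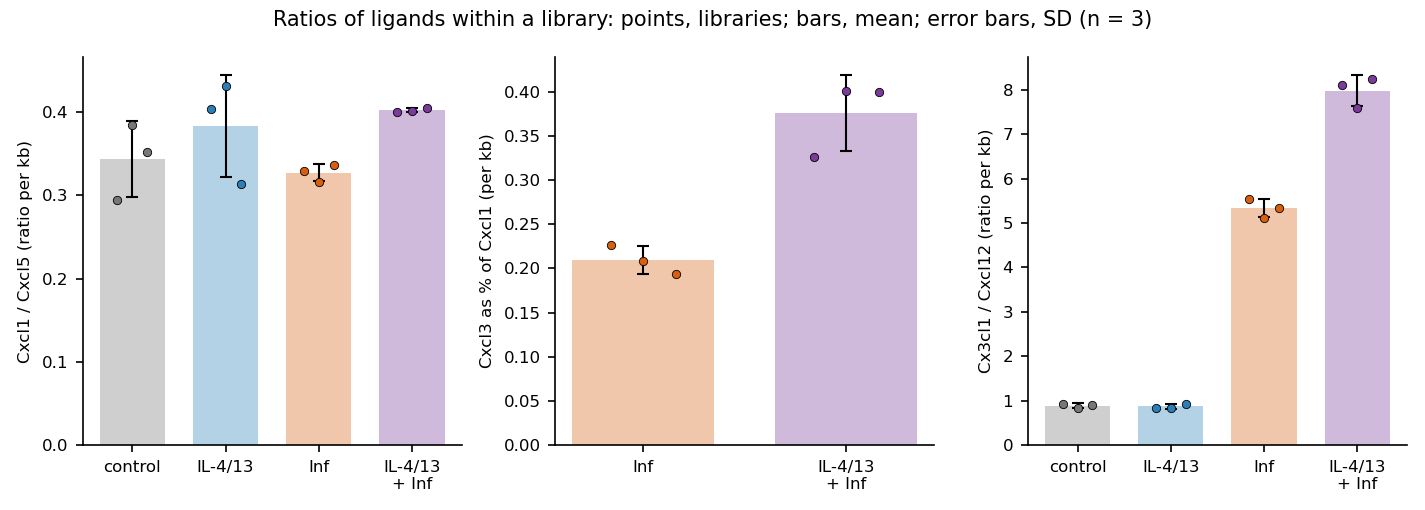
Ratios of transcript levels per kilobase within each library: Cxcl1 to Cxcl5 (left), Cxcl3 as a percentage of Cxcl1 (middle), and Cx3cl1 to Cxcl12 (right); points are libraries, bars the mean, and error bars the SD (n = 3). With IL-4/13 + Inf the ratio of Cxcl1 to Cxcl5 is 0.403, against 0.327 with Inf, and that of Cx3cl1 to Cxcl12 is 7.98, against 5.34. The ratio of Cxcl1 to Cxcl5 was chosen after its values were seen, and neither gene was called in this comparison.

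Cxcl12 was at 195, 201, and 195 CPM with IL-4/13 + Inf, below every library of the other 3 conditions, which lay between 299 and 358 CPM. It was 1.74-fold lower than with Inf (log2 fold change −0.80, SE 0.045, edgeR adjusted p = 2.8e-14) and 1.63-fold lower than with IL-4/13 alone (−0.71, SE 0.046, edgeR adjusted p = 7.2e-14). Of 9 fibroblast markers, 5 were also called lower in IL-4/13 + Inf than in Inf, against 7.00% of all tested genes. All 9 summed to 10625 to 10867 CPM, against 12639 to 13657 CPM with Inf. The sum was 12643 to 13308 CPM with IL-4/13 alone and 14634.5 to 16689 CPM in control. Against control, 4 of the 9 were called lower and 4 higher with Inf, and 4 lower and 0 higher with IL-4/13 alone. Cxcl12 was called in neither of these comparisons. The part of the markers in the result was not tested, and in bulk RNA fewer cells of a type and less RNA per cell cannot be told apart.

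Cx3cl1 was at 760, 733, and 771 CPM with IL-4/13 + Inf, below the Inf libraries by 123 ± 12.01 CPM. Its log2 fold change was −0.22 (SE 0.038, edgeR adjusted p = 6.9e-05), within the calling threshold of 0.25. As Cxcl12 was lower by more, the ratio of Cx3cl1 to Cxcl12 per kilobase was 7.98 ± 0.34 with IL-4/13 + Inf, 5.34 ± 0.21 with Inf, and 0.889 ± 0.050 in control. Cxcl16 was at 21.7, 21.9, and 20.8 CPM, overlapping with Inf, and its log2 fold change of 0.03 had a 95% interval of −0.19 to 0.25.

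None of the CXCR3 ligands was called on Inf. Cxcl10 was at 83.3, 81.1, and 73.4 CPM with IL-4/13 + Inf (0.34, 95% interval −0.13 to 0.81, edgeR adjusted p = 0.30), a range that overlapped with that of Inf. Cxcl11 was at 11.9, 10.7, and 8.71 CPM (0.41, SE 0.17, edgeR adjusted p = 0.083), and it was called without the first Inf library (0.56, edgeR adjusted p = 0.032) or without the third IL-4/13 + Inf library (0.52, edgeR adjusted p = 0.047), within a range of 0.032 to 0.35 over 18 alternatives. Cxcl9 had 16, 7, and 2 reads, and its interval of −1.71 to 0.43 leaves the direction unresolved at this depth. Within a library, Cxcl11 stood at 0.0770 ± 0.010 of Cxcl10 per kilobase with Inf and at 0.0780 ± 0.0072 with IL-4/13 + Inf, against 0.0107 ± 0.0066 in control.

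**Figure D3:**
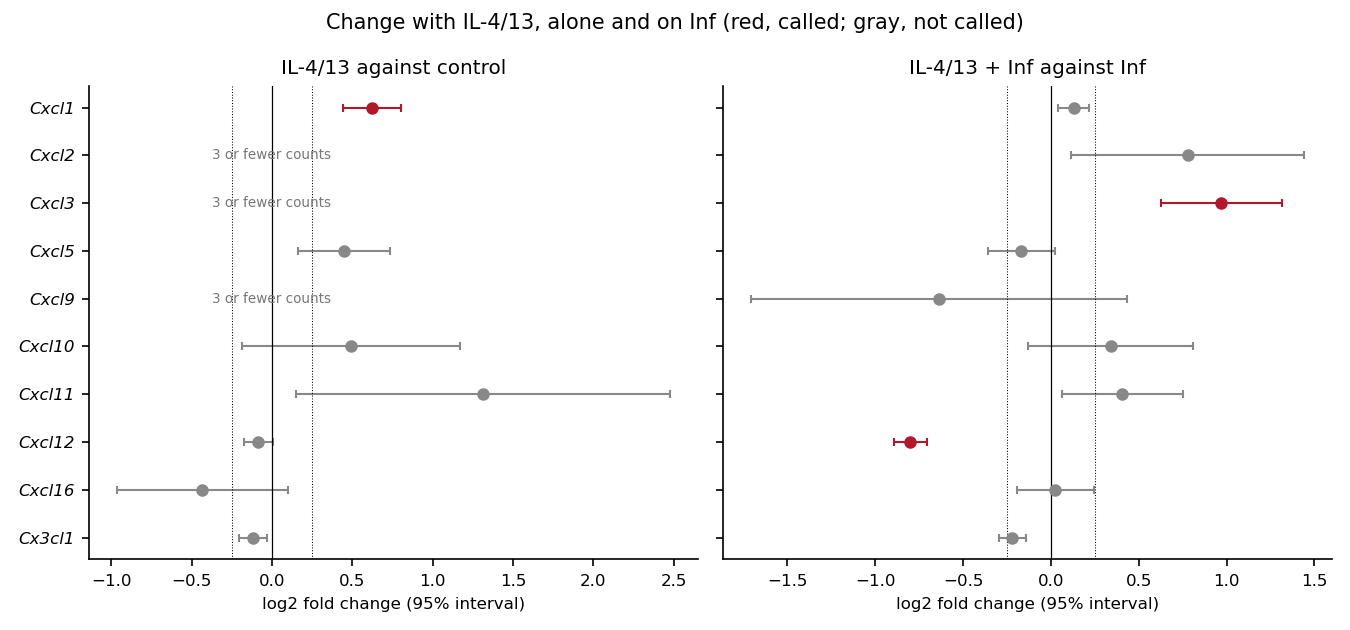
Log2 fold change of each gene with its 95% interval for IL-4/13 against control (left) and IL-4/13 + Inf against Inf (right); red points were called, gray points were not, dotted lines mark the threshold of 0.25, and genes with 3 or fewer reads in every library of both conditions have no point. Cxcl1 is the called gene on the left, and Cxcl3 (0.97) and Cxcl12 (−0.80) are those on the right.

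The difference between the response to IL-4/13 with and without Inf was tested as an interaction on the log2 scale. It was lower for 2 of the 10 genes, Cxcl1 and Cxcl12, and higher for none, while 1.59% of all tested genes were called lower and 1.52% higher. For Cxcl12 the interaction was −0.72 (SE 0.064, edgeR adjusted p = 7.4e-09). For Cxcl1 it was −0.49 (SE 0.098, edgeR adjusted p = 0.0020), from a log2 fold change of 0.62 alone to 0.13 on Inf. In CPM the order was the reverse for Cxcl1, since the difference with IL-4/13 was 3.85 ± 0.55 CPM alone and 125 ± 51.5 CPM on Inf. Cxcl5 had a similar value of −0.62 (SE 0.15, edgeR adjusted p = 0.068) and was not called, but it was without the first control library (−0.79, edgeR adjusted p = 3.6e-06, with a range up to 0.14 over 17 alternatives). For Cxcl2, Cxcl3, and Cxcl9 no interaction is given because groups without Inf had 3 or fewer reads.

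Against control, the full combination raised 9 of the 10 genes and lowered Cxcl12 (−0.79, SE 0.046, edgeR adjusted p = 3.3e-15), while 13.4% of all tested genes were called higher and 11.5% lower. Cxcl1 was 203-fold and Cxcl5 170-fold above control, Cxcl11 51.0-fold, Cxcl16 12.8-fold, Cxcl10 7.38-fold, and Cx3cl1 5.19-fold. Cxcl2 and Cxcl3 were at least 13.5-fold and 56.2-fold above the limit of 3 counts. The call of Cxcl9 (edgeR adjusted p = 0.049) was absent under 15 of 21 other settings, and its ratio of summed reads was 3.97 (exact 95% counting interval 1.59 to 11.8). Against IL-4/13 alone, the combination likewise raised 9 genes and lowered Cxcl12, while 13.3% of all tested genes were called higher and 11.0% lower.

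Other CXC chemokines were mostly silent. Of Cxcl13, Cxcl14, Cxcl15, Cxcl17, Pf4, and Ppbp, only Ppbp, which encodes a further CXCR2 ligand, had enough reads to be tested. Ppbp was at 0.971 CPM in control and 6.62 CPM with Inf (2.75, SE 0.23, edgeR adjusted p = 2.9e-11), and at 6.83 CPM with IL-4/13 + Inf. The receptors Cxcr1, Cxcr3, and Cxcr4 had no read in any library, Cxcr2, Cxcr5, and Cx3cr1 had at most 1, and Cxcr6 at most 4. Ackr3, a scavenging receptor for Cxcl12 and Cxcl11, was the tested receptor of the 9 listed. It was lower with IL-4/13 alone (−0.34, SE 0.11, edgeR adjusted p = 0.049), higher with Inf (0.72, SE 0.10, edgeR adjusted p = 7.7e-07), and not called on Inf (−0.22, SE 0.096).

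Proteases that release or cleave these ligands changed in part. Adam17, which sheds Cx3cl1, rose with Inf by 0.69 (SE 0.049), while Adam10, which sheds Cx3cl1 and Cxcl16, was at −0.03 (SE 0.047). The gelatinase Mmp9 rose with Inf by 3.42 (SE 0.073), from 11.1 to 119 CPM. Mmp2, which can cleave Cxcl12, rose by 0.40 (SE 0.046) with Inf and fell by 0.40 (SE 0.046, edgeR adjusted p = 1.1e-07) when IL-4/13 was added, as Cxcl12 did.

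All 8 tested NF-kB subunits and regulators rose with Inf, with a median log2 fold change of 1.20. In this comparison, 16.3% of all tested genes were called higher and 15.3% lower. Nfkbiz, which encodes the IkBζ cofactor of IL-17A responses, rose by 2.99 (SE 0.082), the inhibitor gene Nfkbia by 2.90 (SE 0.060), and Tnfaip3, which encodes A20, by 2.78 (SE 0.084). On top of Inf, IL-4/13 raised 2 of the 8, Nfkb1 by 0.88 (SE 0.041, edgeR adjusted p = 3.1e-16) and Rel by 0.33 (SE 0.12, edgeR adjusted p = 0.048), while Nfkbiz fell by 0.43 and Tnfaip3 fell by 0.42. Among 7 genes of chemokine mRNA decay and stability, 4 rose and 1 fell with Inf, led by Zc3h12a (4.22, SE 0.072), which encodes the endonuclease Regnase-1. None of the 7 was called when IL-4/13 was added.

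Interferon signaling genes rose with Inf in 6 of 8 tested cases, against 16.3% of all tested genes. Ifng had no read in any library and Ifnb1 at most 4. Ifnar2 rose by 1.82 (SE 0.069), Ifngr2 by 1.41 (SE 0.052), and Irf7 by 1.30 (SE 0.18). With IL-4/13 added to Inf, Ifngr2 rose by 0.69 (SE 0.048) and Ifnar2 fell by 0.44 (SE 0.062), and the other 6, Irf1 and Irf7 among them, were not called. In the IL-4 and IL-13 signaling list, IL-4/13 raised 4 of 8 genes on top of Inf. Of all tested genes, 7.55% were called higher and 7.00% lower in this comparison. The feedback inhibitor Cish rose by 2.43 (SE 0.13), the decoy receptor Il13ra2 by 1.96 (SE 0.060), and Socs1 by 0.89 (SE 0.081).

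**Figure D4:**
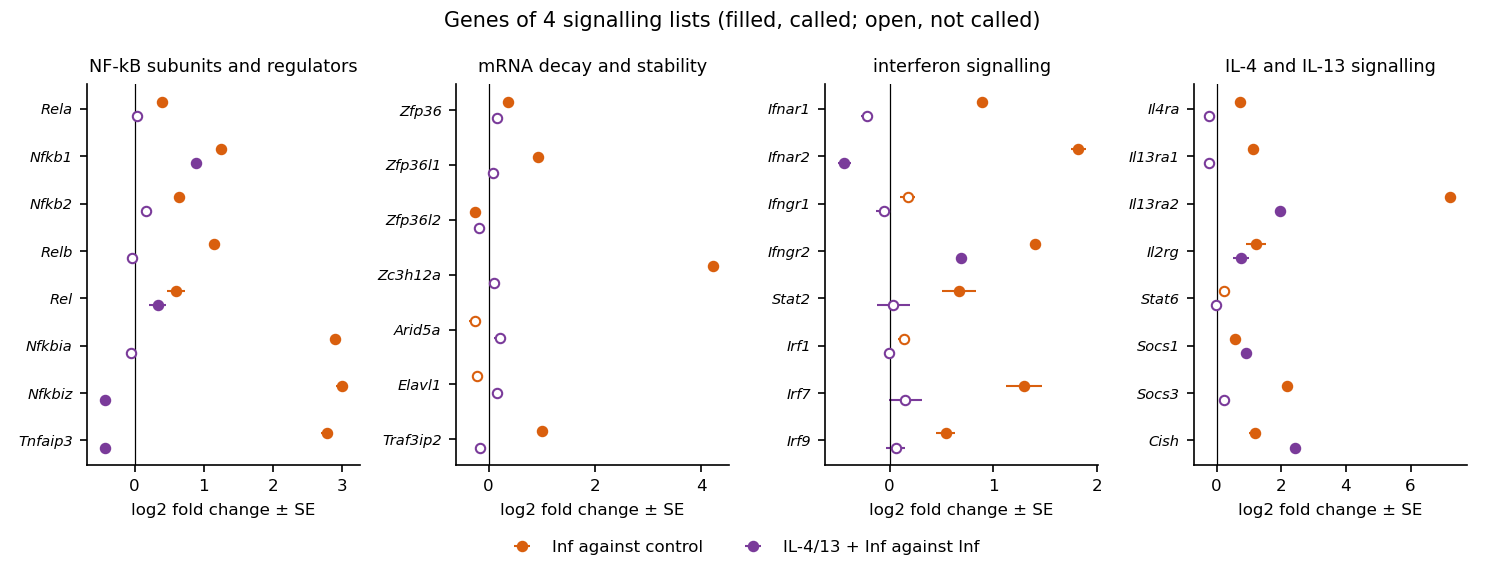
Log2 fold change with its SE for the tested genes of 4 signaling lists, for Inf against control (orange) and IL-4/13 + Inf against Inf (purple); filled points were called and open points were not. The 8 NF-kB genes lie to the right of 0 with Inf, and with IL-4/13 added to Inf they reach from −0.43 (Nfkbiz) to 0.88 (Nfkb1).

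The genes whose pattern over the 12 libraries was most like that of a member were ranked among 10924 genes by the root mean square difference of centered log2 CPM. For Cxcl1 the closest was Cxcl5 (0.174), then Csf3 (0.271), which encodes the neutrophil growth factor G-CSF, and Ccl3 (0.353). Cxcl10 was closest to the interferon-stimulated genes Slfn2 (0.210) and Zbp1 (0.228), and then Socs3 (0.268). Cxcl12 was closest to Ly6a (0.125), Eml1 (0.134), and Cavin2 (0.139). Cxcl16 was closest to Dcn (0.298), the proteoglycan decorin, and Cx3cl1 to En1 (0.098), Ikbke (0.141), and Dgat2 (0.144). These distances describe 12 libraries of 4 conditions that all of the genes share.

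Depth ranged from 13446005 to 20775769 counts per library, and every pair of libraries within a condition differed by more than sampling noise. The fibroblast label fitted the markers, with all 9 tested and a summed level of 10625 to 16689 CPM. Of 5 adipocyte markers, 4 had 3 or fewer reads in every library, and the list summed to 10.7 to 32.2 CPM, nearly all of it Fabp4 and highest with Inf. All 4 T cell markers and the macrophage markers Ptprc, Adgre1, and Itgam were near or at 0, and the 8 macrophage markers summed to 5.83 to 9.84 CPM over all libraries. Of the 4 macrophage markers tested, Mrc1 rose with Inf from 0.181 to 2.11 CPM (3.51, SE 0.41, edgeR adjusted p = 2.4e-08) and was at 3.03 CPM with IL-4/13 + Inf, while Csf1r, Cd68, and Lyz2, at 0.958 to 3.54 CPM in the mean of each condition, were not called with Inf. The endothelial marker Cdh5, with at most 2 reads in a control library, was called higher with Inf at 0.851 CPM (edgeR adjusted p = 0.0013), and the 4 endothelial markers summed to at most 1.64 CPM. The part of these markers in the results was not tested.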

How the data were processed

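Stranded poly(A) libraries of 3T3-L1 cells were aligned and counted by the authors. The submitters' processing notes name STAR, featureCounts, and GRCm39, while their versions, the annotation release, and the strand setting are not given in the sources used here. The deposited values are whole-number counts per gene without normalization. Genes passing filterByExpr (minimum count 10, total 15) were tested in all 12 libraries with edgeR 4.0.16 (TMM scaling, robust quasi-likelihood fit, Benjamini-Hochberg adjustment) in R 4.3.3. Calls needed an adjusted p under 0.05 and a log2 fold change beyond 0.25. CPM used the scaled library sizes. The test was tried beforehand on simulated counts, with changes placed in genes above the median level and the same dispersion for every gene. That trial does not cover members with few reads or widely spread libraries. DESeq2 1.42.0, which the study names, other filters, scalings, and thresholds, and libraries left out in turn were alternatives. Exon lengths came from GENCODE M21, whose build differs from that of the counts. A limit of 3 counts per library stood for genes without reads. Intervals on read counts cover counting error only.

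The members and gene lists were chosen with earlier results of these data known. All 10 members are named. From each list, at most 3 genes called with the largest changes are named, with further genes named for their roles after their values were seen. The 3 tested genes of at least 5 CPM closest to a member were named by root mean square difference of centered log2 CPM with a prior count of 2. A gene of the interferon list is not reported here.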

Additional observations from a re-analysis of the deposited data

Results flagged for a closer look

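The response to IL-4/13 differed between cells with and without Inf for 2 members, by the interaction in edgeR's quasi-likelihood test. For Cxcl12 the difference on the log2 scale was −0.72 (edgeR adjusted p = 7.4e-09), with all 3 IL-4/13 + Inf libraries below all 3 Inf libraries. For Cxcl1 it was −0.49 (edgeR adjusted p = 0.0020), with all 3 IL-4/13 libraries above all 3 control libraries and an overlap between the conditions with Inf.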

How the results depend on the processing

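Of the members' log2 fold changes, the calls of Cxcl12 and Cxcl3 on Inf were absent under 1 of 21 alternatives each, the fold threshold of 1. After IL-4/13 alone, the count of members called was 1, and it was 2 with no low-count filter, with a mean of at least 50 counts, and with DESeq2 (each adding Cxcl5), 3 with only the groups compared (adding Cxcl5 and Cxcl10, the latter at an edgeR adjusted p of 0.0034), and 0 with a log2 fold threshold of 1. With a library left out it ranged from 1 to 2. On Inf, 2 were called, 4 with a threshold of 0 (adding Cxcl1 and Cx3cl1), and 0 with a threshold of 1. The interaction count of 2 was 0 with a threshold of 1, and Cxcl5 was added under 4 alternatives. Signs turned, without a call, for Cxcl12 with Inf without the second Inf library (−0.018, left-out range −0.018 to 0.033), for Cxcl16 on Inf without the same library (−0.0020, range to 0.054), and for the Cxcl10 interaction without the first Inf library (0.067, range from −0.38). Per kilobase of the longest transcript, a scale chosen after seeing the data, no member's rank changed. Cxcl12 and Cx3cl1 were higher by more than their SD in each condition. So were Cxcl16 with Inf and IL-4/13 + Inf, and Cxcl9 in control. With Inf, Cxcl12 was then at 60.9 and Cx3cl1 at 265 CPM per kilobase, so that their ratio depends on the length used.

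Same-numbered libraries did not deviate together (correlations −0.15 to 0.05 over 18 pairs), and the samples were not treated as paired. With 3 libraries per condition, these correlations cannot exclude a batch or culture shared by number. With a replicate block, the count for IL-4/13 + Inf against control was 9 (Cxcl9 lost) and no other count changed. At 3 or fewer reads per library (Cxcl2, Cxcl3, and Cxcl9 without Inf), a change with IL-4/13 was not detectable.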
